A study of Mus musculus with 40 samples.

Results

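IL-1 family cytokines and their receptors were followed as 10 genes across CT26 tumors of 40 mice. The genes were picked by symbol and are Il1a, Il1b, Il1rn, Il1r1, Il1r2, Il1rap, Il18, Il18bp, Il33 and Il1rl1. They are 10 of the 54087 rows of the count table, and all 10 passed the filter on low counts that left 14760 genes for testing. CT26 is a colon carcinoma line derived from BALB/c mice. The host mice were BALB/c as well. Each mouse carried a subcutaneous tumor grown from 1000000 live CT26 cells, was given mAbs intraperitoneally on days 6, 9 and 12, and gave its tumor on day 13. The 8 groups held 5 mice each, and the labels do not give the age of single mice. Control mice received an isotype control (motavizumab, as mouse IgG2a). Single agents were an anti-GARP:TGF-β1 mAb (clone 58A2) with a functional Fc (mIgG2a WT) or an Fc-dead form (FcD) that cannot engage Fcγ receptors, an anti-TGF-β mAb (clone 1D11), and an Fc-silent anti-PD-1 mAb (FcS). GARP holds latent TGF-β1 on the surface of regulatory T cells (Tregs), and PD-1 is an inhibitory receptor of T cells. The remaining groups received anti-PD-1 FcS together with anti-GARP:TGF-β1 WT (the WT combination), anti-GARP:TGF-β1 FcD (the FcD combination) or anti-TGF-β (the anti-TGF-β combination). RNA came from whole tumor fragments, so that transcripts of CT26 cells and of host cells were counted together.

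IL-1α (Il1a) and IL-1β (Il1b) are agonists of the receptor encoded by Il1r1, which signals with the accessory chain encoded by Il1rap through MyD88 and NF-κB. Il1rn encodes the receptor antagonist, which occupies the same receptor without starting a signal, and Il1r2 encodes a decoy receptor that lacks the signalling domain. IL-18 (Il18) is made as an inactive precursor that, like IL-1β, is cut by caspase-1 in inflammasomes, and is trapped outside cells by the IL-18 binding protein (Il18bp), a gene induced by interferon γ. IL-33 (Il33) is a nuclear alarmin of stromal and endothelial cells, and its receptor ST2 (Il1rl1) is found on mast cells, type 2 innate lymphoid cells and a part of Tregs.

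Total counts ran from 11931730 to 20680548 per mouse, with a median of 14030511. Libraries numbered 41 to 60 and 61 to 80 in the sample titles stood apart in sex-linked transcripts. Xist ranged from 0 to 0.428 counts per 1000000 (CPM) in the former and from 62.7 to 791 CPM in the latter, and Y-linked Ddx3y from 6.86 to 33.4 CPM against 0 CPM in every mouse. Each group had 2 or 3 mice in either part, and differences from controls within each part are given beside the main results. Of markers of epithelial tumor cells, Krt18 ranged from 2.96 to 109 CPM and Cdx2 from 1.62 to 6.01 CPM, while Epcam (median 0.546 CPM) and Krt8 (median 1.24 CPM) were at 0 in some tumors. Transcripts used as markers of host cells were present in every tumor. The fibroblast marker Col1a1 was at 202 to 1181 CPM, the macrophage marker Adgre1 at 35.5 to 925 CPM, the mast cell marker Cpa3 at 6.52 to 98.2 CPM and the neutrophil marker S100a8 at 0.554 to 40.7 CPM. The part of these transcripts that came from CT26 cells was not measured.

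Levels of different genes were compared per kilobase of exon. Il1rl1 had the highest median over the 40 mice, at 60.5 CPM per kb, followed by Il1b at 25.8 and Il18bp at 13.3 CPM per kb. Il1r1 (9.88 CPM per kb), Il1rn (7.02 CPM per kb), Il33 (6.11 CPM per kb) and Il18 (4.04 CPM per kb) came next. Il1rap at 2.13 and Il1r2 at 2.03 CPM per kb were close to each other, and Il1a was lowest at 0.776 CPM per kb. In counts, Il1rl1 gave 3889 to 9671 reads per mouse, whereas Il1a gave 9 to 66, Il1r2 19 to 149 and Il18 30 to 127, so that the values of these 3 genes carry the largest counting error among the members. The spread between mice did not follow the level. The ratio of the highest to the lowest mouse was 17.7 for Il18bp and 9.29 for Il1rn, but 2.26 for Il1rl1 and 2.25 for Il1rap.

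**Figure D1:**
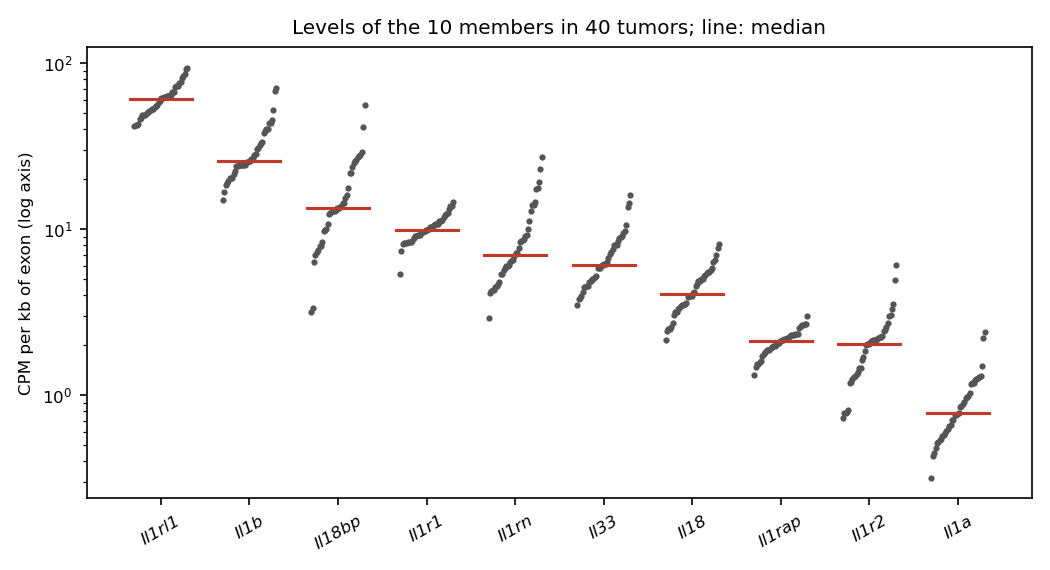
Level of each of the 10 genes in the 40 tumors, in CPM per kb of exon on a log axis, with 1 point per mouse and a line at the median. Il1rl1 lies highest with a median of 60.5 CPM per kb and Il1a lowest with 0.776 CPM per kb.

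Of other receptors of the family, Il18rap (the signalling chain of the IL-18 receptor) had a median of 133 CPM and Il18r1 (its binding chain) of 3.87 CPM. Sigirr, an inhibitory receptor, had a median of 63.1 CPM. Of the IL-36 and IL-38 ligands, Il1f6 and Il1f10 were at 0 in every mouse, and of the list of 5 such ligands Il1f9 (IL-36γ, median 0.550 CPM) was the one that passed the filter.

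No member passed an adjusted p of 0.05 in any of the 14 comparisons made with edgeR's quasi-likelihood test, or in the test for any difference among the 8 groups. With DESeq2's Wald test the count of members called was likewise 0 in each of the 14 comparisons. That count stands without the share of all genes the Wald test called, and is not read as a result about the members. Counts at an unadjusted p under 0.05 are therefore given as a description, beside the share of all 14760 genes that lay below the same limit. Across the 8 groups, 8 of 10 members lay below it (24.7% of all genes), with the smallest adjusted p for Il18bp (0.114) and Il1rn (0.123), and the exceptions were Il1r1 and Il33. At an adjusted p under 0.05 that test called 0.0271% of all genes, and DESeq2's likelihood ratio test called 5 members beside 7.79% of all genes. In edgeR the test called 5 members without mouse 1 of the anti-TGF-β combination (15.3% of all genes), 3 without mouse 2 of anti-TGF-β (2.61%), 2 without mouse 2 of anti-PD-1 (1.22%) and 2 without mouse 2 of the FcD combination (7.74%). Against the isotype control, 5 members lay below the limit in the WT combination (20.7% of all genes), 5 in the FcD combination (16.6%) and 3 in the anti-TGF-β combination (20.1%). The count for the WT combination was 3 when mouse 3 or 4 of the controls or mouse 1, 4 or 5 of the combination was left out (16.6%, 16.7%, 23.8%, 23.2% and 5.85% of all genes). That for the anti-TGF-β combination was 6 without mouse 1 of the controls (15.7%) or mouse 4 of the combination (20%). It was 2 without mouse 2, 4 or 5 of the controls (15.2%, 14.3% and 13.9%). It was also 2 without mouse 1, 2 or 5 of the combination (29.8%, 15.4% and 12.2%). After single agents, 1 member lay below it with anti-TGF-β (2.32% of all genes) and none with anti-PD-1 (0.955%), anti-GARP:TGF-β1 WT (0.969%) or anti-GARP:TGF-β1 FcD (0.474%). At an adjusted p under 0.05 the share of all genes called was 0% in each of these 7 comparisons. The median log2 fold change of the 10 members was 0.42 in the WT combination, 0.64 in the FcD combination and 0.44 in the anti-TGF-β combination, where the medians of all genes were 0.01, 0.00 and 0.02. It was 0.39 with anti-TGF-β alone, 0.12 with anti-PD-1 alone, 0.0050 with anti-GARP:TGF-β1 WT alone and -0.017 with anti-GARP:TGF-β1 FcD alone.

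**Figure D2:**
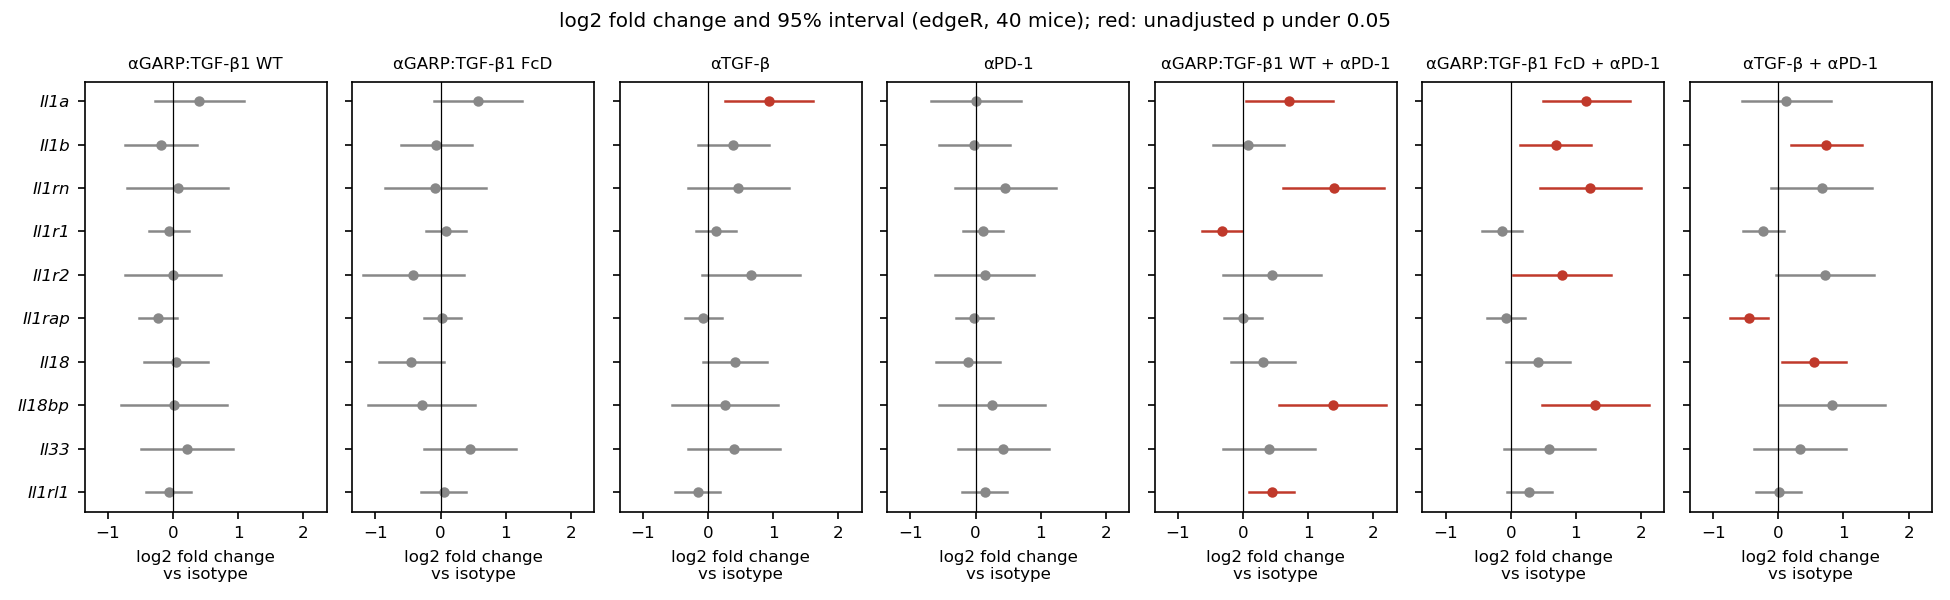
Log2 fold change of each member against the isotype control in the 7 treated groups. The 95% intervals were derived from the F statistic of edgeR's quasi-likelihood test with a normal quantile. They are narrower than the test implies, so that Il18bp in the anti-TGF-β combination is gray with an interval of 0.0065 to 1.63. Red marks an unadjusted p under 0.05 and gray the rest, no point has an adjusted p under 0.05, and Il1rn and Il18bp stand highest in the WT and FcD combinations.

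Il1a lies on chromosome 2 at chr2:129299610-129309972, on the minus strand (GRCm38). The 5 control tumors held 0.625, 1.02, 1.11, 1.49 and 1.80 CPM of Il1a. After anti-TGF-β the values were 1.75, 1.90, 2.45, 2.58 and 2.96 CPM, and in the FcD combination they were 1.68, 2.29, 2.34, 2.52 and 4.76 CPM. In both groups 4 of 5 mice lay above every control, and the lowest mouse lay within the control range. The mean was 2.33 ± 0.4997 CPM (SD, n = 5) after anti-TGF-β and 2.72 ± 1.18 CPM (SD, n = 5) in the FcD combination, against 1.21 ± 0.452 CPM (SD, n = 5) in controls. On the log2 scale the fold change against controls was 1.16 ± 0.34 (SE) in the FcD combination (adjusted p = 0.225, edgeR) and 0.94 ± 0.34 with anti-TGF-β alone (adjusted p = 1.00, edgeR). In the WT combination it was 0.71 ± 0.34 (adjusted p = 0.234, edgeR), with 4 of 5 mice above all controls. The anti-TGF-β combination, with 1.07 to 1.55 CPM, lay wholly inside the control range, although anti-TGF-β alone did not. Within libraries 41 to 60 and 61 to 80, the FcD combination exceeded controls by 0.97 and 1.09, anti-TGF-β alone by 0.97 and 0.71, and the WT combination by 0.58 and 0.71 in mean log2 CPM. The annotation puts 222 bases, or 11.2% of the exon bases of Il1a, opposite Gm14023, whose reads cannot be told apart from those of Il1a if counting ignored strand.

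Il1b, which lies near Il1a at chr2:129364570-129371139 on the minus strand, encodes the inflammasome-dependent agonist. Controls held 38.7, 45.5, 50.5, 51.2 and 58.8 CPM. The FcD combination held 53.3, 76.6, 82.6, 83.6 and 99.6 CPM, and the anti-TGF-β combination 48.3, 64.2, 72.5, 87.0 and 136 CPM. In each of these combinations 4 of 5 mice lay above every control and 1 mouse overlapped with controls. The WT combination held 42.7, 45.7, 46.2, 60.9 and 63.1 CPM, with 2 mice above controls and a range that overlaps with both other combinations. Mean levels were 48.9 ± 7.42 CPM in controls, 51.7 ± 9.49 CPM in the WT combination, 79.1 ± 16.8 CPM in the FcD combination and 81.6 ± 33.4 CPM in the anti-TGF-β combination (SD, n = 5 each). Relative to controls, the log2 fold change was 0.69 ± 0.28 in the FcD combination (adjusted p = 0.251, edgeR) and 0.74 ± 0.28 in the anti-TGF-β combination (adjusted p = 0.164, edgeR). Without mouse 3 of the anti-TGF-β combination, which held 136 CPM, the latter was 0.47. In the WT combination it was 0.08 (95% interval -0.46 to 0.62). Il1bos, opposite 25 exon bases (1.31%) of Il1b, gave 0 to 9 counts per mouse. Compared directly, the FcD combination exceeded the WT combination by 0.61 ± 0.28 on the log2 scale, below an unadjusted p of 0.05 but with an adjusted p of 1.00 (edgeR), and lost that limit when any of mice 1, 3 or 4 of the WT or 1, 2 or 5 of the FcD combination was left out. Il1b was the 1 member of 10 below that limit in this comparison of Fc formats, where 1.3% of all genes lay below it and 0% passed the adjusted threshold. For Il1rn and Il18bp the same difference was -0.16 (95% interval -0.92 to 0.60) and -0.07 (95% interval -0.87 to 0.72). For these genes the intervals span zero and reach beyond 0.5 on the log2 scale in either direction. After single agents 1 mouse each was high with anti-TGF-β (130.2 CPM), anti-GARP:TGF-β1 WT (76.9 CPM) and anti-PD-1 (74.2 CPM). The high mouse of anti-TGF-β, mouse 2, also had the highest summed neutrophil (437 CPM), fibroblast (5764 CPM) and adipocyte (756 CPM) markers of all 40 mice, where the other mice of its group had 70.0 to 116, 1610 to 3281 and 52.4 to 80.4 CPM. The part of these markers in its Il1b level was not tested. The other 4 mice of anti-GARP:TGF-β1 WT held 28.6, 31.9, 37.2 and 41.2 CPM, and 3 of them lay below every control. Within libraries 41 to 60 and 61 to 80, Il1b exceeded controls by 0.47 and 0.84 in the FcD combination and by 0.31 and 0.89 in the anti-TGF-β combination (mean log2 CPM).

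The 250 bases upstream of the transcription start, from RefSeq (GRCm38.p6), are shown for both agonists because these neighbours have a similar core promoter and differ in other motifs. Letters are 5′ to 3′ on the gene's strand, and capitals mark matches to the motifs searched on both strands, namely NF-κB (GGANTTTCC), PU.1 (GAGGAA), C/EBP (TTGCNNAA), AP-1 (TGANTCA), GAS (TTCNNNGAA), the ISRE core (GAAANNGAA) and the TATA box (TATAAA).
Il1a promoter, chr2:129309973-129310222, minus strand: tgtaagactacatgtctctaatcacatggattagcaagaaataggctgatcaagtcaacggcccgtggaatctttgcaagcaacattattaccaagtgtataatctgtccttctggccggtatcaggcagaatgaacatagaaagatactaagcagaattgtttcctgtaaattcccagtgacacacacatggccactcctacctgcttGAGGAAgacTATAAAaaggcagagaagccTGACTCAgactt
Il1b promoter, chr2:129371140-129371389, minus strand: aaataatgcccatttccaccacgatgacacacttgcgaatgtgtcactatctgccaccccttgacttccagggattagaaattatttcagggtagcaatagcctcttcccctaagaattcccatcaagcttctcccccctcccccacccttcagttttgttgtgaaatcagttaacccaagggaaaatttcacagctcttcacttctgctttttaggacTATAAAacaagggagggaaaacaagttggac
Counted back from the transcription start, the TATA box lies at -32 to -27 in Il1a and at -31 to -26 in Il1b. Il1a has in addition a PU.1 match at -41 to -36 and an AP-1 match at -12 to -6. Over 32851 promoters of the same length, the TATA box was found in 12.4%, the PU.1 motif in 23.3% and the AP-1 motif in 6.75%. The NF-κB motif, held by 1.07% of promoters, was not among the letters of the 15 promoter entries of the 10 members. A match describes letters and is not evidence of binding.

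**Figure D3:**
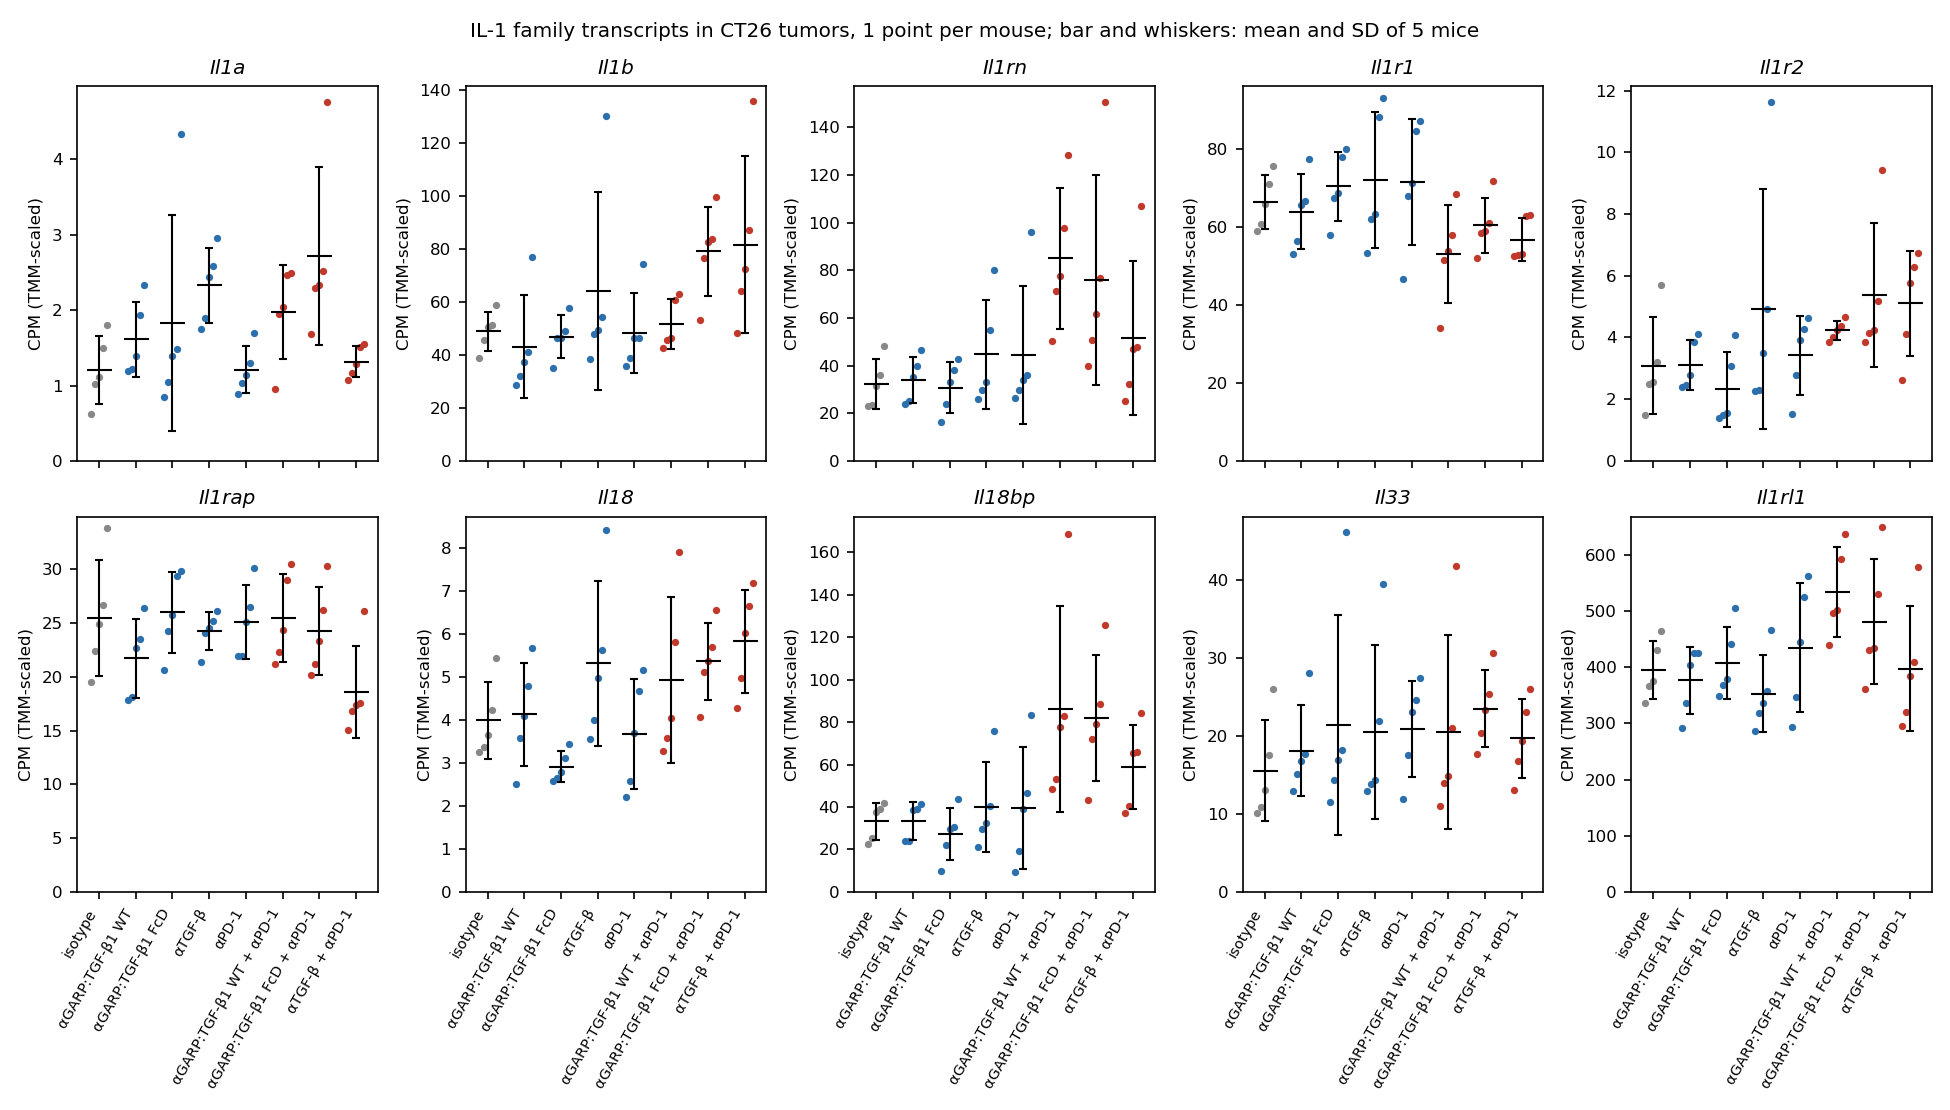
CPM of each of the 10 genes by treatment group, with 1 point per mouse (5 per group), the group mean and the SD. All 5 mice of the WT combination lie above every control for Il1rn and Il18bp, and 4 of 5 mice of the FcD and anti-TGF-β combinations lie above every control for Il1b.

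Il1rn, on chromosome 2 at chr2:24336853-24351494 (plus strand, no overlapping gene), gave the largest difference of the members in the WT combination together with Il18bp. Controls held 22.9, 23.6, 31.5, 36.0 and 48.4 CPM. The WT combination held 50.3, 71.2, 77.6, 97.9 and 128 CPM, so that all 5 mice lay above every control. The FcD combination held 39.7, 50.8, 61.7, 76.8 and 151 CPM, with 4 of 5 mice above every control. The anti-TGF-β combination held 24.95, 32.1, 46.9, 47.8 and 107 CPM, with 1 mouse above controls and the others within their range. In the fitted model the log2 fold change against controls was 1.39 ± 0.40 in the WT combination (95% interval 0.61 to 2.17, adjusted p = 0.159, edgeR), equal to 2.62-fold, and 1.22 ± 0.40 in the FcD combination (adjusted p = 0.225, edgeR). It was 0.67 ± 0.40 in the anti-TGF-β combination, and 0.23 there without mouse 1. In the FcD combination it was 0.82 without mouse 1, which held 151 CPM and was also the highest of its group for Il1a, Il1b, Il1r2, Il18bp and Il1rl1. That tumor ranked 2 of 40 for summed neutrophil (324 CPM) and Treg (43.2 CPM) markers and 3 of 40 for macrophage (6510 CPM) and T cell (163 CPM) markers, whose part in these levels was not tested. In bulk tumor RNA a change in the number of cells that express a gene cannot be told apart from a change in RNA per cell. Within libraries 41 to 60 and 61 to 80 the WT combination exceeded controls by 0.68 and 1.84, the FcD combination by 0.87 and 1.21 and the anti-TGF-β combination by 0.87 and 0.32, in mean log2 CPM. Mean levels after single agents lay between 30.8 CPM (anti-GARP:TGF-β1 FcD) and 44.8 CPM (anti-TGF-β). Anti-PD-1 alone held 26.5, 29.7, 33.8, 36.1 and 96.2 CPM, with 1 mouse above controls.

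The first of 3 Il1rn promoter entries and the Il18bp promoter are shown because these antagonists were highest in the same groups. Both lack a TATA box match in this window.
Il1rn promoter, chr2:24336610-24336859, plus strand: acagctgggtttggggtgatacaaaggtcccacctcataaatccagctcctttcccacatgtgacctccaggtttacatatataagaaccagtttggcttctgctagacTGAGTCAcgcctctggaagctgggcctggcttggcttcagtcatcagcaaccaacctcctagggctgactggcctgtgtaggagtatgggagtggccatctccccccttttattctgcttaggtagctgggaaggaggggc
Il18bp promoter, chr7:102018233-102018482, minus strand: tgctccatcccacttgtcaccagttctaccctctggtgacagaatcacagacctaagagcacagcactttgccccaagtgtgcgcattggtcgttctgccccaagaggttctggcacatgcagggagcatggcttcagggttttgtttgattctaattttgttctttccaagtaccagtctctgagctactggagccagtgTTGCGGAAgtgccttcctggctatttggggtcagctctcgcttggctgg
The AP-1 match of Il1rn lies at -141 to -135 and the C/EBP match of Il18bp at -49 to -42. The C/EBP motif was found in 9.56% of the 32851 promoters. Neither window held the GAS or ISRE core letters, which 7.02% and 7.13% of promoters hold.

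Il1r1, the signalling receptor (chromosome 1, chr1:40225080-40317257, plus strand), was at 58.9, 60.9, 65.9, 71.1 and 75.6 CPM in controls and at 34.0, 51.5, 53.9, 58.0 and 68.5 CPM in the WT combination. Of these 5 mice, 4 lay below every control. Its log2 fold change was -0.32 ± 0.16 (adjusted p = 0.239, edgeR), and -0.20 without mouse 5. Within libraries 41 to 60 and 61 to 80 the difference was -0.15 and -0.49 in mean log2 CPM. Il1r1 had 3 of 5 mice below every control in the FcD combination (mean 60.4 ± 7.13 CPM) and in the anti-TGF-β combination (mean 56.8 ± 5.53 CPM), without reaching an unadjusted p under 0.05 against controls.

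Il1r2, the decoy (chr1:40074079-40125231, plus strand), was low. Controls held 1.49, 2.49, 2.57, 3.21 and 5.69 CPM and the FcD combination 3.85, 4.15, 4.25, 5.19 and 9.44 CPM, groups that overlap because of the highest control. The fitted log2 fold change was 0.79 ± 0.38 (adjusted p = 0.298, edgeR), and 0.49 without mouse 1 of the FcD combination. Within libraries 41 to 60 and 61 to 80 the difference was 0.35 and 1.03 in mean log2 CPM. Il1rap, the accessory chain shared by the IL-1 and IL-33 receptors (chromosome 16, chr16:26581704-26730117, plus strand), was at 19.5, 22.4, 24.9, 26.6 and 33.9 CPM in controls. In the anti-TGF-β combination it was at 15.1, 16.8, 17.4, 17.5 and 26.1 CPM, with 4 of 5 mice below every control. On the log2 scale the fold change was -0.46 ± 0.15 (adjusted p = 0.142, edgeR), and it was -0.27 and -0.57 within the library parts in mean log2 CPM. Without mouse 1 of the anti-TGF-β combination, which held 26.1 CPM, it was -0.60 and passed an adjusted p of 0.05 beside 13.4% of all genes, as it did without mouse 3 of the controls (-0.54), beside 4.88% of all genes. In the other groups the mean of Il1rap lay between 21.7 and 26.0 CPM. Gm20319 lies opposite 552 exon bases (4.86%) of Il1rap.

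Il18 (chromosome 9, chr9:50554827-50581840, plus strand) was at 3.26, 3.38, 3.66, 4.23 and 5.44 CPM in controls. The anti-TGF-β combination held 4.28, 4.99, 6.04, 6.67 and 7.20 CPM, with 3 of 5 mice above every control. Against controls the log2 fold change was 0.55 ± 0.25 (adjusted p = 0.2203, edgeR) and 0.49 and 0.56 within the library parts in mean log2 CPM. Anti-GARP:TGF-β1 FcD alone lay lowest, at 2.59, 2.66, 2.78, 3.11 and 3.45 CPM, with 4 of 5 mice below every control, and the FcD combination held 4.07, 5.12, 5.37, 5.69 and 6.57 CPM. For Il18 the log2 change with the FcD combination therefore exceeded the sum of the changes with each agent by 1.00 ± 0.36 (interaction, adjusted p = 0.787, edgeR).

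Il18bp (chromosome 7, chr7:102014885-102018690, minus strand) varied most between mice of all members. Controls held 22.5, 25.2, 37.7, 38.9 and 41.8 CPM. The WT combination held 48.4, 53.4, 77.5, 82.7 and 169 CPM and the FcD combination 43.5, 72.0, 79.3, 88.7 and 126 CPM. All 5 mice of both combinations lay above every control. In the anti-TGF-β combination (37.1, 40.3, 65.6, 66.1 and 84.3 CPM) 3 of 5 mice did. In the fitted model the log2 fold change was 1.37 ± 0.42 in the WT combination (95% interval 0.55 to 2.19, adjusted p = 0.159, edgeR), 1.30 ± 0.42 in the FcD combination (adjusted p = 0.225, edgeR) and 0.82 ± 0.41 in the anti-TGF-β combination. Without mouse 5 of the WT combination, which held 169 CPM, the first of these was 0.98. The tumor of that mouse also had the highest summed macrophage (13362 CPM), T cell (385 CPM) and endothelial (509.8 CPM) markers of all 40 mice. It likewise ranked 1 of 40 for monocyte, dendritic cell, Treg (53.8 CPM), NK cell and mast cell (446 CPM) markers. The part of these markers in its Il18bp level was not tested. Within libraries 41 to 60 and 61 to 80 the difference was 0.62 and 1.69 for the WT combination, 0.93 and 1.51 for the FcD combination and 0.90 and 0.72 for the anti-TGF-β combination in mean log2 CPM. Anti-PD-1 alone spanned the control range on both sides, with 9.53, 19.2, 39.03, 46.5 and 83.4 CPM. The interaction of anti-GARP:TGF-β1 FcD with anti-PD-1 was 1.34 ± 0.59 for Il18bp (adjusted p = 0.787, edgeR). Numa1 lies opposite 80 exon bases (2.64%) of Il18bp and gave 1659 to 3340 counts per mouse.

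Il33 (chromosome 19, chr19:29925114-29960718, plus strand) did not separate the groups. Controls held 10.1, 10.9, 13.1, 17.6 and 26.0 CPM and the FcD combination 17.7, 20.4, 23.3, 25.4 and 30.7 CPM, ranges that overlap. Its log2 fold change was 0.60 ± 0.36 (95% interval -0.11 to 1.30), and within the library parts it was -0.03 and 1.23 in mean log2 CPM. Group means lay between 15.6 and 23.5 CPM. Il1rl1 (chr1:40429570-40465415, plus strand) was among the more abundant transcripts of the tumors, with a median level at the 97.8 percentile of the tested genes in CPM. Controls held 336, 367, 375, 430 and 464 CPM, and the WT combination held 440, 497, 502, 592 and 637 CPM. Of the latter, 4 of 5 mice lay above every control. The fitted log2 fold change was 0.44 ± 0.18 (adjusted p = 0.177, edgeR), with 0.39 and 0.46 within the library parts in mean log2 CPM. The FcD combination (361, 430, 434, 530 and 649 CPM) overlapped with controls in 3 of 5 mice, and the anti-TGF-β combination had a mean of 397 ± 111 CPM beside 394 ± 51.6 CPM in controls (SD, n = 5).

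The balance between paired members was followed per mouse as the difference of log2 CPM, and is given without a test. Pairs were an agonist and its antagonist or binding protein, a receptor and its decoy (Il1r1 and Il1r2), or a ligand and its receptor (Il33 and Il1rl1). For Il1b and Il1rn the difference was 0.63 ± 0.26 (SD) in controls and -0.66 ± 0.58 in the WT combination, that is 1.55 Il1b reads per Il1rn read against 0.631. In the WT combination 4 of 5 mice lay below every control, and in the FcD combination (0.19 ± 0.68) 3 of 5 did. The FcD mean was -0.023 without mouse 2 and 0.39 without mouse 1. The anti-TGF-β combination kept a positive mean, at 0.76 ± 0.91. For Il18 and Il18bp the difference was -2.99 ± 0.24 in controls, -4.01 ± 0.42 in the WT combination and -3.83 ± 0.44 in the FcD combination, with all 5 mice of both combinations below every control. It was -3.25 ± 0.27 in the anti-TGF-β combination, where 2 of 5 mice lay below controls. Il1r1 exceeded its decoy Il1r2 by 4.49 ± 0.72 in controls and by 3.58 ± 0.42, 3.53 ± 0.59 and 3.51 ± 0.63 in the WT, FcD and anti-TGF-β combinations, in which 1, 2 and 2 mice lay below every control. With anti-GARP:TGF-β1 FcD alone it was 4.96 ± 0.76, with 3 of 5 mice above every control, and with the other single agents it was between 4.08 and 4.39. The pairs Il1a and Il1rn (-4.61 ± 0.80 in controls) and Il33 and Il1rl1 (-4.73 ± 0.59 in controls) overlapped with controls in every group.

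**Figure D4:**
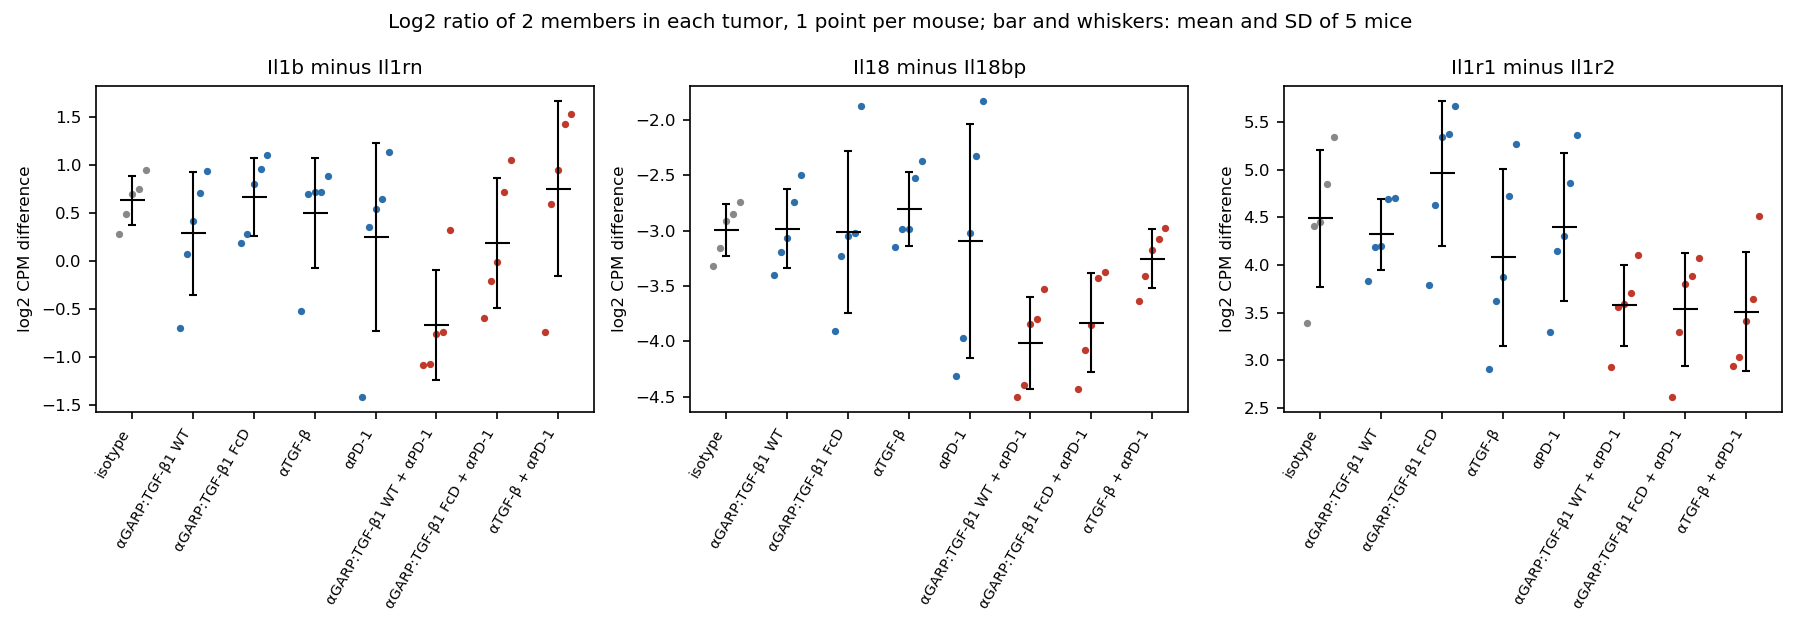
Difference of log2 CPM for Il1b minus Il1rn, Il18 minus Il18bp and Il1r1 minus Il1r2 in the same tumor, by treatment group, with 1 point per mouse (5 per group) and the mean and SD as bar and whiskers. For Il18 minus Il18bp the means are -2.99 in controls, -4.01 in the WT combination and -3.83 in the FcD combination.

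Each combination was also compared with anti-PD-1 alone, which shares its 5 mice among these comparisons. In the WT combination 4 members lay below an unadjusted p of 0.05 (17.2% of all genes), namely Il1a (0.71 on the log2 scale), Il1rn (0.93), Il18bp (1.12) and Il1r1 (-0.43). Without mouse 2 of the anti-PD-1 group, Il1rn (1.43), Il18bp (1.59) and Il1r1 (-0.55) passed an adjusted p of 0.05 in this comparison, beside 3.6% of all genes. That mouse was the one with 96.2 CPM of Il1rn. Its tumor also had the highest summed skeletal muscle markers of the 40 mice (139 CPM) and ranked 2 of 40 for mast cell (339 CPM) and keratinocyte (35.5 CPM) markers, whose part in this comparison was not tested. Without mouse 5 of the WT combination, Il18bp was at 0.73, Il1rn at 0.74 and Il1r1 at -0.30, and 0 members lay below the unadjusted limit, as did 5.42% of all genes. In the FcD combination 4 members lay below the unadjusted limit (10.7% of all genes), namely Il1a (1.16), Il1b (0.71), Il18 (0.55) and Il18bp (1.05), each with an adjusted p of 0.458 (edgeR). In the anti-TGF-β combination 4 did (17.1% of all genes), namely Il1b (0.75), Il18 (0.67), Il1r1 (-0.33) and Il1rap (-0.43). Without mouse 3 of that combination Il1b was at 0.49. Il1rap passed an adjusted p of 0.05 without mouse 1 of the combination (-0.58), beside 11.6% of all genes. At an adjusted p under 0.05 the shares of all genes were 0%, 0% and 0.00678%. For the interaction of an agent with anti-PD-1, 0 members lay below the unadjusted limit with anti-GARP:TGF-β1 WT (8.75% of all genes), 2 with anti-GARP:TGF-β1 FcD (4.49%) and 0 with anti-TGF-β (2.3%).

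Lists of genes of the IL-1 pathway were read in the same comparisons with isotype controls, which all share the 5 control mice. Of 15 inflammasome and processing genes, 14 passed the filter. Of these, 5 were higher at an unadjusted p under 0.05 in the WT combination, 7 in the FcD combination and 5 in the anti-TGF-β combination, with median log2 fold changes of 0.54, 0.52 and 0.31, and 0 were lower. Of all genes, 13.2%, 10.7% and 8.49% were higher in these combinations at the same limit. None passed an adjusted p of 0.05 in edgeR. Casp4, an inflammatory caspase, had 0.49, 0.44 and 0.50 in the 3 combinations. Mefv, which encodes the sensor pyrin, had 1.39 in both the WT and the FcD combination, and Pycard, the adaptor ASC, had 1.00 in the WT combination. Nlrp3 had 0.63 in the FcD combination, and Casp1 and Gsdmd, the pore former, had 0.39 and 0.33 in the anti-TGF-β combination.

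All 17 genes of receptor signalling passed the filter, and 7 were higher and 1 lower at an unadjusted p under 0.05 in the WT combination. In the FcD combination 3 were higher, and in the anti-TGF-β combination 1 was higher and 2 were lower. Of all genes, 7.47%, 5.85% and 11.6% were lower in the WT, FcD and anti-TGF-β combinations, beside the shares of higher genes given above, and the counts in the FcD and anti-TGF-β combinations are too near these shares to be read as a result. Irak3, an inhibitor of the IRAK kinases, had a log2 fold change of 1.42 in the WT combination and of 1.28 in the FcD combination, while Irak2, which encodes an IRAK family kinase, had 0.56 and 0.57. In the anti-TGF-β combination Myd88 had 0.46, and the kinase genes Irak1 and Map3k7 had -0.17 and -0.22. Of 18 genes known to respond to IL-1, 16 passed. In the WT combination 4 were higher and 1 lower, in the FcD combination 10 were higher, in the anti-TGF-β combination 3, and with anti-TGF-β alone 4, with medians of 0.41, 0.72, 0.58 and 0.50. With anti-TGF-β alone 1.77% of all genes were higher. The adhesion molecule gene Icam1 had 0.91 and 0.97 in the WT and FcD combinations. Saa3, an acute phase protein, had 2.14 in the FcD and 2.07 in the anti-TGF-β combination, and Cxcl2, a neutrophil chemokine, had 2.09 in the latter. Il6 had 1.43 in the anti-TGF-β combination and 1.39 with anti-TGF-β alone, and Ptges was lower in the WT combination (-0.40). No gene of either list passed an adjusted p of 0.05 in edgeR. Of the other receptors of the family, Sigirr had -0.55 in the WT combination, and of the other ligands Il1f9 had 1.74 in the FcD combination.

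Summed levels of cell type markers were read in the same groups, and no gene of these lists passed an adjusted p of 0.05 against controls in edgeR. The summed level of 10 neutrophil markers found in the table, of 11 listed, ran from 60.3 to 121 CPM in controls (median 71.6 CPM). It ran from 90.8 to 280 CPM in the WT combination, from 89.0 to 324 CPM in the FcD combination and from 87.1 to 245 CPM in the anti-TGF-β combination, with medians of 136, 163 and 142 CPM. Ly6g was near 0, with a highest value of 0.247 CPM. The 8 mast cell markers ran from 37.5 to 109 CPM in controls and from 126 to 446, 86.1 to 214 and 75.5 to 288 CPM in the 3 combinations. The 10 macrophage markers ran from 2621 to 4166 CPM in controls and from 2826 to 13362, 4080 to 6510 and 4008 to 5328 CPM in the combinations. Treg markers had medians of 19.2 CPM in controls and of 28.8, 30.1 and 23.9 CPM in the combinations, and T cell markers of 72.6, 70.7, 80.3 and 65.1 CPM. Adipocyte markers ran from 27.3 to 113 CPM in controls and from 32.3 to 222, 69.6 to 675 and 49.5 to 199 CPM in the combinations. Medians of the 7 endothelial markers were 107, 116, 153 and 128 CPM, and those of the 8 fibroblast markers 2477, 1903, 2677 and 2357 CPM. In a few mice other lists stood high. Keratinocyte markers reached 34.7 CPM in the WT combination, 49.7 CPM in the FcD combination and 35.5 CPM with anti-PD-1 alone, against at most 6.94 CPM in controls, while the medians of the combinations were 6.99, 6.79 and 8.38 CPM beside 6.86 CPM in controls. Epithelial markers, among which Epcam and Krt8 were at 0 in some tumors, reached 155 and 344 CPM in the WT and FcD combinations against at most 24.5 CPM in controls, with medians of 25.1 and 16.4 CPM beside 21.6 CPM. These peaks were in the same mice as the keratinocyte peaks of the WT and FcD combinations, mouse 5 and mouse 4. Skeletal muscle markers reached 139 CPM with anti-PD-1 alone and at most 2.70 CPM in controls. Monocyte markers had medians of 259 CPM in controls and of 313, 348 and 335 CPM in the combinations, dendritic cell markers of 30.9, 32.1, 44.3 and 34.6 CPM, and NK cell markers of 11.1, 12.6, 16.5 and 17.5 CPM. The part of these cell markers in the differences of the members was not tested.

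**Figure D5:**
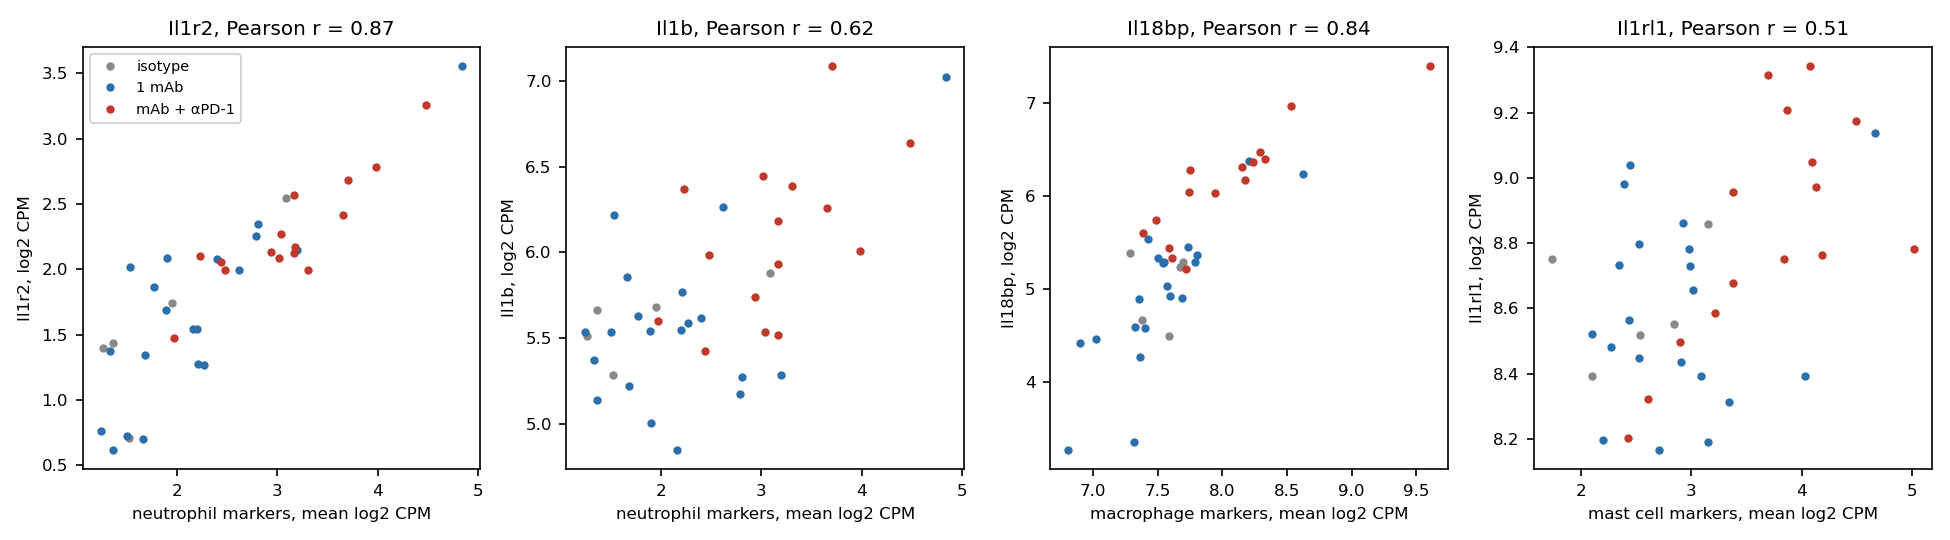
Log2 CPM of Il1r2, Il1b, Il18bp and Il1rl1 against the mean log2 CPM of neutrophil, neutrophil, macrophage and mast cell markers, with 1 point per mouse (40 mice) in gray for isotype controls, blue for single mAbs and red for combinations. Il1r2 follows the neutrophil markers (r = 0.87) and Il18bp the macrophage markers (r = 0.84).

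Over the 40 mice, the log2 CPM of each member was correlated with the mean log2 CPM of 8 marker lists, and that of Il1b with the 9 other members, in a family of 89 relations with permutation p-values. Il1r2 followed the neutrophil markers (r = 0.87, rho = 0.86). The r was 0.84 without the 2 mice farthest from the median, 0.92 and 0.82 within libraries 41 to 60 and 61 to 80, and 0.82 with group means removed. Il1r2 also had r = 0.72 (rho = 0.74) with Treg and r = 0.66 (rho = 0.69, adjusted permutation p = 0.000119 and 0.000148) with mast cell markers. For these lists r was 0.66 and 0.63 without 2 mice, 0.78 and 0.59 in libraries 41 to 60, 0.66 and 0.71 in libraries 61 to 80, and 0.65 and 0.57 without group means. Il1rn followed the mast cell markers (r = 0.85, rho = 0.77), the Treg markers (r = 0.83, rho = 0.77) and the neutrophil markers (r = 0.76, rho = 0.76). For Il1rn and mast cell markers r was 0.83 without 2 mice, 0.82 and 0.86 within the library parts and 0.74 without group means. For Il1rn and Treg markers these values were 0.78, 0.71, 0.91 and 0.75, and for Il1rn and neutrophil markers 0.73, 0.78, 0.72 and 0.73. The mast cell and neutrophil lists both hold Hdc, the histidine decarboxylase gene. Il18bp (r = 0.84, rho = 0.81) and Il18 (r = 0.71, rho = 0.69) followed the macrophage markers. Their r was 0.81 and 0.65 without 2 mice, 0.89 and 0.74 in libraries 41 to 60, 0.82 and 0.70 in libraries 61 to 80, and 0.78 and 0.69 without group means. Other lists gave values of like size. Il18bp had r = 0.81 (rho = 0.73) with Treg, 0.78 (rho = 0.74) with mast cell and 0.76 (rho = 0.64) with T cell markers, and Il18 had r = 0.71 (rho = 0.67) with T cell markers. Without 2 mice these r were 0.82, 0.74, 0.69 and 0.63, in libraries 41 to 60 0.70, 0.79, 0.76 and 0.68, in libraries 61 to 80 0.91, 0.78, 0.75 and 0.74, and without group means 0.70, 0.64, 0.83 and 0.75. Except for Il1r2 with mast cell markers and the rho of Il18bp with T cell markers (adjusted permutation p = 0.000278), the adjusted permutation p of these relations was 6.85e-05 for r and 8.9e-05 for rho, which rest on the smallest p that 100000 permutations can give (1e-05).

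With neutrophil markers Il1b had r = 0.62 and rho = 0.52 (adjusted permutation p = 0.000119 and 0.00267), with r of 0.50 without 2 mice, 0.67 and 0.71 within the library parts and 0.44 without group means. With Il1r2 it had r = 0.58 and rho = 0.44 (0.000187 and 0.0142), with 0.46 without 2 mice, 0.68 and 0.69 within the parts and 0.45 without group means. With its antagonist Il1rn it had r = 0.37 and rho = 0.38 (0.0342 and 0.0357), with 0.35, 0.47, 0.33 and 0.25 in the same order. With macrophage markers r was 0.37 and rho 0.33 (0.0342 and 0.0735), with 0.34, 0.52, 0.22 and 0.21 in the same order. Il1rl1 and the mast cell markers had r = 0.51 and rho = 0.48 (0.00214 and 0.00702), with 0.47, 0.68, 0.37 and 0.38. Il33 and endothelial markers had r = 0.64 and rho = 0.52 (0.000157 and 0.00302), with 0.73, 0.52, 0.87 and 0.61. Values of like size came with Treg markers (r = 0.63, rho = 0.65, adjusted permutation p = 0.000157 and 0.000148), with 0.64, 0.45, 0.72 and 0.68, and with neutrophil markers (r = 0.59, rho = 0.61, adjusted permutation p = 0.000254 and 0.000205), with 0.70, 0.32, 0.76 and 0.64. Il1r1 had negative r with several lists. With T cell markers it had r = -0.56 and rho = -0.45 (0.00106 and 0.011), and -0.40, -0.42, -0.79 and -0.52 in the same order. With mast cell markers it had r = -0.58 and rho = -0.54 (0.000387 and 0.00192), and -0.45, -0.57, -0.75 and -0.47. With macrophage markers r was -0.56 and rho -0.50 (0.00137 and 0.00519), and -0.38, -0.37, -0.78 and -0.45. With Treg markers r was -0.51 and rho -0.48 (0.00228 and 0.00702), and -0.35, -0.38, -0.81 and -0.36. With keratinocyte markers r was -0.53 and rho -0.30 (0.00181 and 0.0976), and -0.39, -0.31, -0.61 and -0.54.

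The genes whose log2 CPM was most like that of a member over the 40 mice were found among all tested genes and are a description. Il18bp was matched most closely, by Hk3 (r = 0.98), a hexokinase of myeloid cells, RP23-52N2.1 (r = 0.97) and Samhd1 (r = 0.96). Il1rn was followed by Gla (r = 0.93), Adam8 (r = 0.93) and Fabp5 (r = 0.92), and Il1r2 by Hdc (r = 0.88), Hcar2 (r = 0.86) and S100a8 (r = 0.85). Il1b was followed by Osm (r = 0.76), which encodes oncostatin M, Mcemp1 (r = 0.73) and Fas (r = 0.70). Il1r1 was most like Il1rl2 (r = 0.88), the IL-36 receptor gene of the same cluster of receptor genes. Il1rl1 was most like Enc1 (r = 0.85), Il33 most like Adam23 (r = 0.79), Il18 most like Ms4a4c (r = 0.84) and Il1rap most like Reep3 (r = 0.88). For Il1a the closest gene, Mgam, reached r = 0.55, the lowest among the members.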

How the data were processed

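Tumor RNA of 40 mice, 5 in each of 8 treatment groups taken from the labels, was sequenced as paired-end reads of stranded mRNA libraries. Per the submitters' processing notes, the authors used STAR 2.5.3a, SAMtools 1.6 and HTSeq 0.9.1 with GRCm38, and deposited raw counts per gene without normalization. The annotation release and the strand setting of counting are not given in the sources used here. In the table, 27 gene names had become calendar dates, none of them a member. All columns of per-sample counts were used. The members and all lists were chosen with earlier results of these data known.

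Counts were normalized by TMM, filtered with filterByExpr (14760 genes kept) and tested 2-sided with the robust quasi-likelihood test of edgeR 4.0.16 (R 4.3.3, limma 3.58.1) in 1 model of all 40 mice. P-values were adjusted by the Benjamini-Hochberg method over all genes tested, and called means an adjusted p under 0.05. Standard errors were derived by dividing the fitted log2 fold change by the square root of its F statistic. The 95% intervals were built from them with a normal quantile. They are narrower than the quasi-likelihood test implies, and can exclude no change where the unadjusted p is above 0.05. CPM used TMM library sizes, log2 CPM a prior count of 2, and levels per kb the exon bases of the GENCODE M21 annotation. Correlations used 100000 permutations (scipy 1.17.1, numpy 2.4.6). All members were named, and of each pathway list up to 4 genes with the smallest p in a comparison. DESeq2 1.42.0 and the settings named in the closing section were alternatives. The scripts were tested on simulated counts. Intervals cover the spread between mice, and low counts add counting error.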

Additional observations from a re-analysis of the deposited data

Results flagged for a closer look

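Of 80 sets of 5 mice (10 genes in 8 groups), 12 had a highest or lowest mouse whose gap to the next was more than 0.71 of the range of its group in CPM, and in each it was the highest. For normally distributed values chance gives about 1 in 20, or 4, with both ends counted, and CPM need not be so distributed. For Il1a these were mouse 2 of anti-GARP:TGF-β1 FcD (4.34 CPM, others 0.849 to 1.49) and mouse 1 of the FcD combination (4.76 CPM, others 1.68 to 2.52). For Il1b they were mouse 5 of anti-GARP:TGF-β1 WT (76.9 CPM, others 28.6 to 41.2), mouse 2 of anti-TGF-β (130.2 CPM, others 38.5 to 54.4) and mouse 4 of anti-PD-1 (74.2 CPM, others 35.9 to 46.6). For Il1rn they were mouse 2 of anti-PD-1 (96.2 CPM, others 26.5 to 36.1) and mouse 1 of the anti-TGF-β combination (107 CPM, others 24.95 to 47.8). For Il1r2 they were mouse 2 of anti-TGF-β (11.6 CPM, others 2.27 to 4.94) and mouse 1 of the FcD combination (9.44 CPM, others 3.85 to 5.19). The others were Il1rap in mouse 1 of the anti-TGF-β combination (26.1 CPM, others 15.1 to 17.5), Il18bp in mouse 5 of the WT combination (169 CPM, others 48.4 to 82.7) and Il33 in mouse 2 of anti-GARP:TGF-β1 FcD (46.1 CPM, others 11.5 to 18.2). Mouse 2 of anti-GARP:TGF-β1 FcD, mouse 2 of anti-TGF-β and mouse 1 of the FcD and anti-TGF-β combinations were each named for more than 1 gene. The cause of these high values was not tested.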

How the results depend on the processing

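Of 175 values of log2 fold changes under another normalization, no filter, a library part covariate, separate models or DESeq2, 173 kept their direction and their side of an adjusted p of 0.05. With separate models of the compared groups, 2 members of the FcD combination were called against controls (Il1b 0.70 and Il18bp 1.31) beside 1.3% of all genes. The count at an unadjusted p under 0.05 became 3 for the WT combination (14.4% of all genes), 7 for the FcD combination (21.3%), 5 for the anti-TGF-β combination (20.9%) and 1 for anti-GARP:TGF-β1 FcD (1.06%) against controls. It became 2 for the WT (6.89%) and 2 for the FcD combination (11.1%) against anti-PD-1, and 1 for the interaction of anti-TGF-β (2.11%). That last count was also 1 without the filter (3.17%) and with DESeq2's Wald test (1.68%), and the count for the interaction of anti-GARP:TGF-β1 WT was 1 with library part as a covariate (8.79%). DESeq2's likelihood ratio test called 5 members and 7.79% of all genes among the 8 groups, where edgeR called 0. Other counts that changed by at most 1.5 times are not listed. The cause of the shifts in this section was not tested.

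With each mouse left out in turn, counts at an unadjusted p under 0.05 ran against controls from 3 to 4 (WT combination, 5.85% to 28.3% of all genes), 4 to 6 (FcD combination, 8.02% to 29.9%), 2 to 6 (anti-TGF-β combination, 11.5% to 29.8%), 1 to 3 (anti-TGF-β, 0.853% to 4.8%), 0 to 1 (anti-GARP:TGF-β1 WT, 0.642% to 5.09%) and 0 to 1 (anti-GARP:TGF-β1 FcD, 0.368% to 0.756%). Against anti-PD-1 they ran from 0 to 5 (5.42% to 25.6%), 2 to 6 (4.74% to 25.2%) and 2 to 5 (9.27% to 28.1%) for the WT, FcD and anti-TGF-β combinations, and for the FcD against the WT combination from 0 to 1 (1.1% to 5.35%). For the interactions of anti-GARP:TGF-β1 WT, FcD and anti-TGF-β they ran from 0 to 3 (3.37% to 18.5%), 1 to 5 (2.77% to 11.9%) and 0 to 2 (1.26% to 11.8%), and among the 8 groups from 6 to 9 (17.9% to 37%). Members called ran from 0 to 1 for the anti-TGF-β combination against controls (0% to 13.4%) and against anti-PD-1 (0% to 11.6%), from 0 to 3 for the WT combination against anti-PD-1 (0% to 3.6%) and from 0 to 5 among the 8 groups (0% to 15.3%). The sign turned for Il1b in the WT combination against controls (-0.0019 to 0.15), and for Il1rn (-0.57 to 0.032) and Il18bp (-0.28 to 0.32) between the FcD and WT combinations, and for the mean log2 difference of Il1b and Il1rn in the FcD combination (-0.023 to 0.39). Groups of 5 mice and a median of 14030511 counts limit what could be detected. No paired analysis was possible because the labels give mice no shared numbers across groups.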
